A study of Rattus norvegicus with 9 samples.

Results

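The genes described are 8 genes of cholesterol synthesis and its control, Hmgcs1, Idi1, Fdps, Fdft1, Sqle, Lss, Cyp51 and Insig1, in rat lung fibroblasts at 3 postnatal days. They were chosen by name and no measured level enters the rule, but earlier results of these data were known when they were chosen. Of the 8 genes, 7 had probe sets that name the gene as their only symbol, 11 probe sets in all out of 31042 tested, and Hmgcs1 was not analysed here. Insig1, Fdps and Sqle had 1 probe set each and the other 4 genes had 2, of which the one brightest on average over the 9 arrays stands for the gene. The group was named for synthesis and uptake, but none of the 8 encodes an uptake protein, so uptake genes are described from a separate list.

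Lung fibroblasts were isolated from rat pups on postnatal day 2 (saccular stage, before septation), day 7 (while septa were forming) and day 21 (after septation had ended), and total RNA was hybridised to single-colour Affymetrix arrays. Septation is the growth of ridges that divide the air spaces of the newborn lung into alveoli. Each day had 3 arrays, and an array held cells pooled within 1 litter, from 5 pups on day 2 and from 4 on days 7 and 21. No treatment was given, and no strain or sex is stated in the labels. Cells were dispersed with trypsin and collagenase and kept if they stuck to plastic within a short plating, which does not remove other cell types that adhere. All 12 measured fibroblast markers lay above log2 4.25, the 25th percentile of all values, on every array, and so did 14 of 16 macrophage markers, 5 of 6 endothelial markers and 8 of 10 epithelial markers. No listed marker of any of the 4 cell types lay below that level on all 9 arrays. The median intensity per array was 37.9 to 50.4, and the 3 arrays per day limit the precision of each value.

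Cholesterol is built from acetyl-CoA through mevalonate. Idi1 isomerises the activated isoprene unit, Fdps joins such units into farnesyl diphosphate, Fdft1 condenses farnesyl units to squalene, Sqle oxidises squalene, Lss closes the ring to lanosterol, and Cyp51 removes a methyl group from lanosterol. The genes are induced by SREBP transcription factors when membrane sterol is low. Insig1 encodes a membrane protein of the endoplasmic reticulum that retains the SREBP escort protein SCAP there when sterol is plentiful, and it is itself an SREBP target. Lung cells take up cholesterol from lipoproteins as well as making it, and surfactant contains it.

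Promoters of members are shown because the listed genes are known as targets of shared factors. RefSeq windows of 300 bases on the GRCr8 build, with 250 bases before the gene's start, were found for 6 of the 8 genes, and Sqle and Fdft1 had no entry in the table used. The 3 printed belong to Insig1 and Lss, the called members with a window, and to Idi1, whose level moved least over the arrays. Capitals mark matches, on either strand, to CCAAT (the box bound by NF-Y), GGGCGG (the GC box bound by Sp1) or CACGTG (an E-box). Insig1 lies on chr4:8057720-8058019, minus strand, Lss on chr20:12118181-12118480, minus strand, and Idi1 on chr17:66547475-66547774, minus strand, each printed 5′ to 3′ in the direction of its gene.
Insig1: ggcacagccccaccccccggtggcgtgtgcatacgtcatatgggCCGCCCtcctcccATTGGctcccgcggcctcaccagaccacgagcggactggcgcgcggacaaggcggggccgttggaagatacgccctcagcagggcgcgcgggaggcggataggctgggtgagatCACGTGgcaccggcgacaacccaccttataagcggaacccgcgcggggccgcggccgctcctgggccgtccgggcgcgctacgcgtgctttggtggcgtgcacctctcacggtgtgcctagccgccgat
Lss: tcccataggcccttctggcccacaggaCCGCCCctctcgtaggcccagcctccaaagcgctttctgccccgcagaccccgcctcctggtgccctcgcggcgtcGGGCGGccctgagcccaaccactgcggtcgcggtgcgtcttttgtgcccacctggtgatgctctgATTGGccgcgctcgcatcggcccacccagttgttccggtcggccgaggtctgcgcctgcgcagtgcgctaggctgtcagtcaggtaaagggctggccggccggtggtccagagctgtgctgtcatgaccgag
Idi1: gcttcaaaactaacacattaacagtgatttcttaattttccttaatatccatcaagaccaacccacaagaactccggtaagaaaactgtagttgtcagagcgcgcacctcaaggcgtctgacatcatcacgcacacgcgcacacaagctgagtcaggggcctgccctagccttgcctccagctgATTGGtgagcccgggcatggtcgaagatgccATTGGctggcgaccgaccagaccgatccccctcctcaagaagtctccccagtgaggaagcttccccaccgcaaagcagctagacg

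At least 1 CCAAT stood in 5 of the 6 windows, all but that of Cyp51, and in 37.5% of all 33469 promoters of the table. GGGCGG stood in 5 of the 6, all but that of Idi1, and in 33.1% of all promoters. CACGTG stood in the Insig1 window alone of the 6, where it began 79 bases before the start (distance -79), and in 6.42% of all promoters. The core of the sterol regulatory element was searched as TCACNCCAC and, more loosely, as TCACNNCA, which contains the first. Neither was found in any of the 6 windows, against 1.12% and 14.6% of all promoters, which says only that these letters are not in those 300 bases. The map of matches shows a pair of CCAAT boxes in Hmgcs1, Fdps and Idi1 and a single one in Lss and Insig1.

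**Figure D1:**
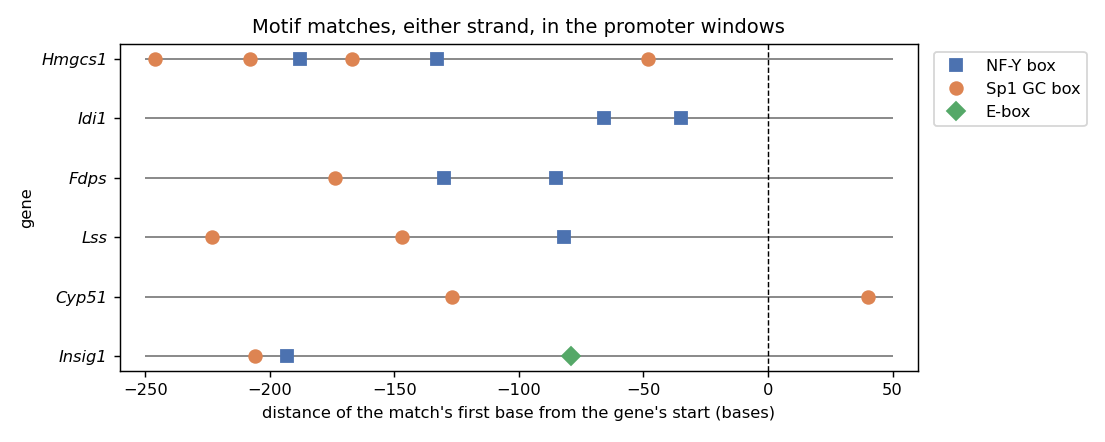
Motif matches in the 300-base promoter windows of 6 of the listed genes, by distance in bases from the gene's start (dashed line), with a row per gene and a symbol per motif. Matches to CCAAT (squares) occur in every gene but Cyp51, and the only E-box match lies in Insig1 at -79.

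Over all 9 arrays the widest span of a cholesterol synthesis gene was that of Insig1, 1.33 log2 units, and the narrowest that of Idi1, 0.42. Sqle spanned 1.08, Lss 0.99 and Fdft1 0.98. These spans are of the brightest probe sets, and the dimmer one of Idi1 ran from 7.93 to 8.69. Idi1 and Lss had their highest mean on day 7, Insig1 on day 21, and Sqle, Fdft1, Fdps and Cyp51 on day 2. The lowest mean was on day 21 for every enzyme but Idi1. For bulk samples such as these, fewer cells of a type and less RNA per cell cannot be told apart.

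Insig1, the retention protein, was at log2 10.14, 9.85 and 10.01 on the day 2 arrays, 9.62, 9.55 and 10.26 on the day 7 arrays and 10.88, 10.74 and 10.28 on the day 21 arrays. All day 21 arrays lay above all arrays of both earlier days, though day 21 replicate 3, at 10.28, was close to day 7 replicate 3, at 10.26.

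Fdft1, squalene synthase, was at log2 6.60, 6.74 and 6.95 on the day 2 arrays, 6.34, 6.89 and 6.87 on the day 7 arrays and 5.97, 6.01 and 6.23 on the day 21 arrays. Days 2 and 7 overlapped, and all day 21 arrays lay below both.

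Lss, lanosterol synthase, was at log2 6.56, 6.86 and 6.88 on the day 2 arrays, 6.97, 7.25 and 7.23 on the day 7 arrays and 6.62, 6.70 and 6.26 on the day 21 arrays. Day 7 lay above both other days without overlap, and days 2 and 21 overlapped.

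Sqle, squalene epoxidase, was at log2 7.99, 7.82 and 8.06 on the day 2 arrays, 7.41, 7.67 and 8.36 on the day 7 arrays and 7.60, 7.38 and 7.28 on the day 21 arrays. The day 21 arrays lay below those of day 2, while day 7 replicates 1 and 3 were 0.95 log2 units apart and reached from the day 21 range to above the day 2 range.

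Cyp51, lanosterol demethylase, was at log2 9.74, 9.65 and 9.37 on the day 2 arrays, 9.43, 9.29 and 9.71 on the day 7 arrays and 9.31, 9.12 and 9.01 on the day 21 arrays. The day 21 arrays lay below those of day 2, and day 7 overlapped both. The suffix of this probe set, _s_at, marks in Affymetrix naming probes that can match several related transcripts, so signal from similar sequences may be included.

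Fdps, farnesyl diphosphate synthase, was at log2 8.57, 8.80 and 9.003 on the day 2 arrays, 8.42, 8.59 and 8.85 on the day 7 arrays and 8.47, 8.56 and 8.69 on the day 21 arrays. Idi1, the isomerase, was at 9.57, 9.43 and 9.28 on the day 2 arrays, 9.37, 9.71 and 9.70 on the day 7 arrays and 9.49, 9.44 and 9.57 on the day 21 arrays. For both genes all 3 days overlapped.

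**Figure D2:**
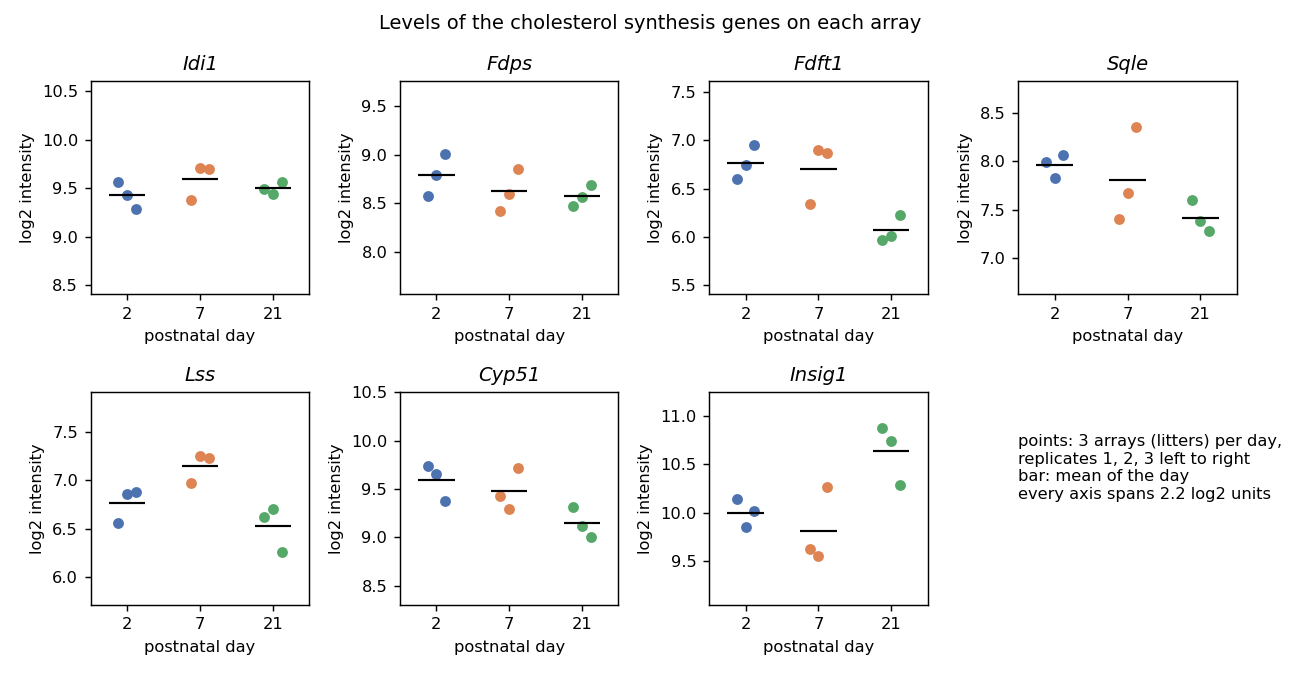
Log2 intensity (vertical axes, each spanning the same range) of the 7 measured genes on the 3 arrays of postnatal days 2, 7 and 21 (horizontal axes), with a point per array and a bar at the mean of the day. Insig1 is highest and Fdft1 lowest on the day 21 arrays, Lss is highest on the day 7 arrays, and the days overlap for Fdps and Idi1.

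Days 7 and 2 were compared to cover the start of septation. None of the 7 genes passed limma's test at an adjusted p under 0.05, higher or lower, against 5.5% of all 31042 probe sets called higher and 3.44% called lower. At an unadjusted p under 0.05, 1 was higher and 0 were lower. That gene was Lss, whose mean was 7.15 ± 0.15 on day 7 and 6.77 ± 0.18 on day 2 (log2, SD, n = 3 arrays each), a difference of 0.38 ± 0.17 (SE, limma adjusted p = 0.214). The dimmer probe set of Lss differed by -0.10 ± 0.17 (SE, limma adjusted p = 0.824), opposite in sign. The 7 changes ran from -0.19 for Insig1 to 0.38 for Lss, with a median of -0.11, beside 0.05 over all probe sets. The 95% intervals bound what could have been missed. That of Lss reached highest, from 0.01 to 0.76, and that of Insig1 reached lowest, from -0.66 to 0.29. That of Idi1 ran from -0.17 to 0.50, and the widest, that of Sqle, from -0.63 to 0.34.

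Days 21 and 7 were compared to cover its end. Insig1 rose and the sterol enzymes Fdft1 and Lss fell, each by less than 2-fold. Insig1 averaged 10.63 ± 0.31 on day 21 and 9.81 ± 0.39 on day 7 (log2, SD, n = 3 each) and was 1.77-fold higher on day 21 (log2 change 0.82 ± 0.22 SE, limma adjusted p = 0.0126). Fdft1 averaged 6.07 ± 0.14 on day 21 and 6.70 ± 0.31 on day 7, 1.55-fold lower on day 21 (log2 change -0.63 ± 0.18, adjusted p = 0.0199). Lss averaged 6.52 ± 0.24 on day 21 and 7.15 ± 0.15 on day 7, 1.54-fold lower on day 21 (log2 change -0.63 ± 0.17, adjusted p = 0.0151). Thus 1 of 7 genes was called higher and 2 lower, where 11% of all probe sets were called higher and 19.1% lower. Both numbers are near the background for a list of 7 genes. For each of these 3 genes the day 21 and day 7 arrays did not overlap. The share of all probe sets without overlap is not given here, so this only describes the arrays.

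The other 4 enzymes had negative estimates for day 21 against day 7 and did not pass. Sqle differed by -0.39 ± 0.22 (limma adjusted p = 0.221) and Cyp51 by -0.33 ± 0.17 (adjusted p = 0.174). Idi1 differed by -0.09 and Fdps by -0.05, with 95% intervals from -0.43 to 0.24 and from -0.42 to 0.32. The median over the 7 genes was -0.33, beside 0.02 over all probe sets. Even the largest of these changes was moderate for this comparison, since 81.0% of all probe sets changed by less than Insig1 and 73.8% by less than Fdft1.

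These calls lie close to the threshold. The call of Insig1 was lost without day 7 replicate 2 (adjusted p = 0.0574) and without day 21 replicate 1 (adjusted p = 0.0545), and held under the other settings run. The call of Fdft1 was lost after a further quantile normalization (0.112), with arrays centred on their median (0.108), and without day 7 replicate 2 (0.0841), day 7 replicate 3 (0.0691), day 21 replicate 1 (0.0668) or day 21 replicate 2 (0.0598), all adjusted p-values. The call of Lss was lost after a further quantile normalization (0.0572), with centred arrays (0.0939) and without day 7 replicate 2 (0.0584) or day 21 replicate 3 (0.0626).

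For day 21 against day 7 no dimmer probe set of the 4 genes with 2 was called, and the difference was smaller than on the brighter one for Fdft1, Lss and Cyp51 and larger for Idi1. For Lss that probe set averaged 5.63 ± 0.24 on day 21 and 5.64 ± 0.09 on day 7, with no difference beyond its SE of 0.17 (limma adjusted p = 0.996), so its probe sets disagree. For Fdft1 the dimmer probe set differed by -0.27 ± 0.17 (adjusted p = 0.268), in the direction of the brighter. The dimmer probe set of Cyp51 differed by 0.08 ± 0.20, opposite in sign to the brighter, and that of Idi1 by -0.23 ± 0.18, and neither passed. The falls of Fdft1 and Lss therefore each rest on 1 of 2 probe sets.

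Days 21 and 2 were compared to give the net difference. Fdft1 was 1.62-fold lower on day 21, at 6.07 ± 0.14 against 6.76 ± 0.18 on day 2 (log2 change -0.69 ± 0.18, limma adjusted p = 0.0208). It was the only member called, with 0 of 7 higher and 1 lower, where 6.82% of all probe sets were called higher and 12.2% lower. These numbers are also near the background. Insig1 was at 10.63 ± 0.31 on day 21 and 10.00 ± 0.15 on day 2, a difference of 0.63 ± 0.22 (adjusted p = 0.0634). Sqle differed by -0.54 ± 0.22 (adjusted p = 0.114) and Cyp51 by -0.44 ± 0.17 (adjusted p = 0.0913), and neither passed. The arrays of the 2 days did not overlap for either gene. No share over all probe sets is given, so this again only describes the arrays. At an unadjusted p under 0.05, 1 member was higher and 3 were lower. Fdft1 lost its call after a further quantile normalization (adjusted p = 0.0577), with centred arrays (0.0543), on its dimmer probe set (0.659) and without day 2 replicate 2 (0.0578), day 2 replicate 3 (0.0682), day 21 replicate 1 (0.0651) or day 21 replicate 2 (0.0618). Insig1 passed after a further quantile normalization (0.0253), with only the days compared in the fit (0.0435), with trended and robust moderation (0.0314) and without day 21 replicate 3 (0.0363), and Sqle passed with only the days compared (0.0455).

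**Figure D3:**
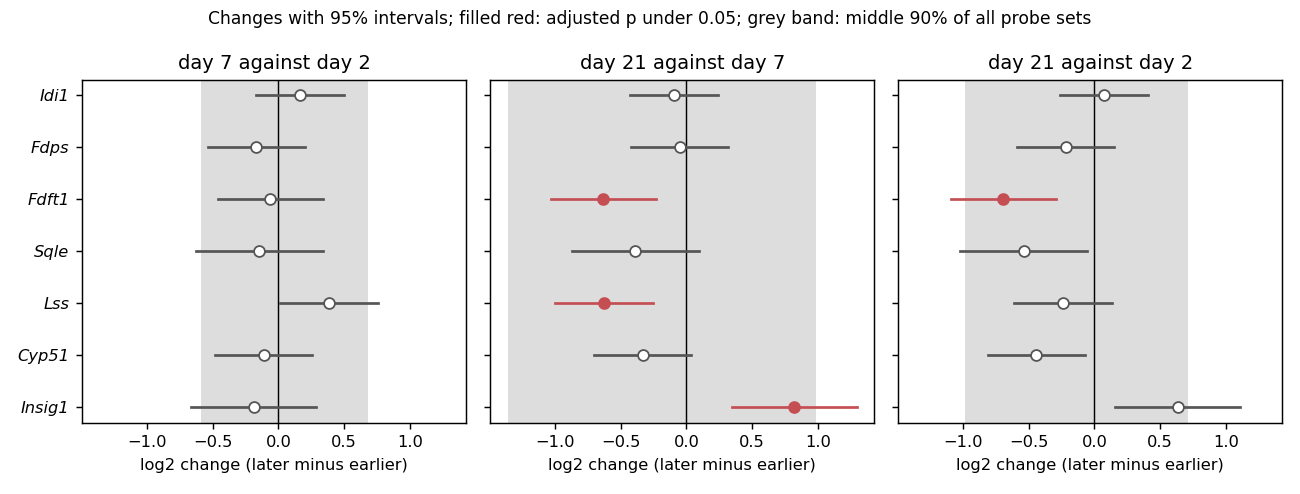
Log2 change (horizontal axes, later minus earlier day) of each measured gene with its 95% interval in the 3 comparisons, filled red where the adjusted p was under 0.05, over a grey band from the 5th to the 95th percentile of all probe sets. All 21 estimates lie inside the band, the called ones being Insig1 (0.82), Fdft1 (-0.63) and Lss (-0.63) for day 21 against day 7 and Fdft1 (-0.69) for day 21 against day 2.

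The 2 largest mean deviations of the members from their day means were on day 7 arrays. On day 7 replicate 3 all 7 genes lay above their own day 7 mean, by 0.08 to 0.55 log2 units with a mean of 0.26. Sqle deviated most, followed by Insig1. On day 7 replicate 1 none of the 7 did, with a mean deviation of -0.23. Of the 9218 probe sets with a mean level between those of the dimmest and the brightest member, 58.4% lay above their day mean on day 7 replicate 3 and 45.4% on day 7 replicate 1. Deviations of 3 arrays from their own mean sum to 0, so the high and the low array are not separate observations. Among the day 7 arrays, 2 of the 7 genes were lowest on replicate 1 and highest on replicate 3, as were 20.8% of those 9218 probe sets. On the arrays of days 2 and 21 between 2 and 5 members lay above their day mean.

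Among the day 7 arrays, the brighter probe sets of Idi1, Fdft1 and Lss were highest on replicate 2, slightly above replicate 3. Those of Sqle, Fdps, Cyp51 and Insig1 were highest on replicate 3. The dimmer probe set of Cyp51 was highest on day 7 replicate 3, at 7.84 against 7.28 and 7.17 on replicates 1 and 2. That of Idi1 was highest there too, at 8.69 against 8.12 and 8.28. The dimmer ones of Fdft1 and Lss were the lowest of the day 7 arrays there, at 5.53 and 5.54. The mean level of 10 other enzymes that act on sterols after squalene was 6.63 on day 7 replicate 3, against 6.70 and 6.75 on replicates 1 and 2, while that of 11 genes of sterol sensing and SREBP processing was 7.67 there, against 7.62 and 7.50. Day 7 replicate 3 also had the lowest mean level of 16 macrophage markers, 7.33 against 7.93 and 8.12. The mean level of 10 epithelial markers was 5.80 there, the lowest of the 9 arrays, against 6.62 and 6.50. Its log2 difference between the 3′ and 5′ probe sets of beta-actin, a measure of RNA integrity, was the highest of the 9 arrays, at 1.18 against 0.93 and 0.71. The part of any of these in the pattern was not tested.

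**Figure D4:**
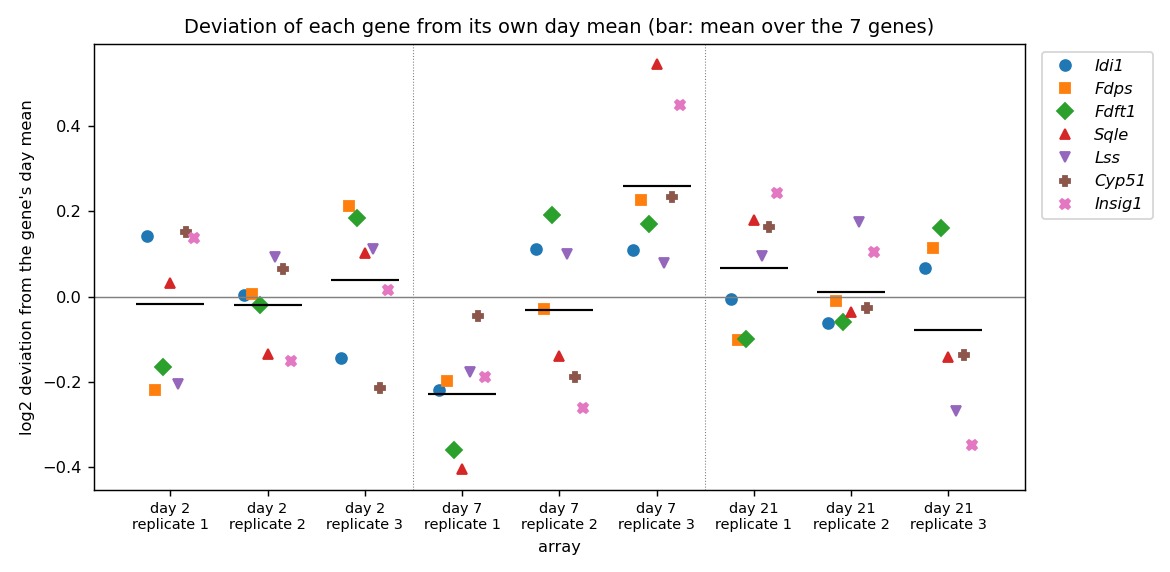
Log2 deviation of each measured gene from its own day mean (vertical axis) on each of the 9 arrays (horizontal axis), with a symbol per gene and a bar at the mean over the 7 genes. All 7 genes lie above 0 on day 7 replicate 3 and below 0 on day 7 replicate 1.

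The other genes of the pathway were taken from lists chosen by role, whose counts stand against 11% of all probe sets called higher and 19.1% called lower for day 21 against day 7, and 5.5% and 3.44% for day 7 against day 2. No call was made between days 2 and 7 among 12 other enzymes of mevalonate and isoprenoid synthesis (median change 0.26). For day 21 against day 7, 4 of them were called lower and 0 higher (median -0.40). Fntb, a subunit of farnesyl transferase, changed by -0.65 ± 0.17 (limma adjusted p = 0.0127). Its call was lost without day 7 replicate 1 (0.0546) or day 21 replicate 3 (0.0537). Those of Acat1, Pggt1b and Coq2 were lost under 5 to 8 alternatives each. Of 10 other enzymes that act after squalene, 4 were lower on day 21 than on day 7 and 0 were higher (median -0.20). Erg28, a membrane protein that in yeast tethers sterol demethylation enzymes, changed by -1.32 ± 0.21 (adjusted p = 0.000432). Msmo1, the methylsterol oxidase that follows Cyp51, changed by -0.83 ± 0.17 (adjusted p = 0.00285), and Nsdhl, of the same demethylation steps, changed by -0.68 ± 0.16 (adjusted p = 0.00553). Msmo1 was also lower on day 21 than on day 2 (log2 change -0.78 ± 0.17, adjusted p = 0.0086). The calls of Erg28, Msmo1 and Nsdhl for day 21 against day 7 and that of Msmo1 for day 21 against day 2 held under all alternatives run. The fourth called lower, Ebp, the sterol isomerase, changed by -0.52 ± 0.16 (adjusted p = 0.0272). Its call was lost after a further quantile normalization (0.0918), with centred arrays (0.104) and without day 7 replicate 1 (0.112), day 7 replicate 2 (0.0838), day 21 replicate 1 (0.0796) or day 21 replicate 2 (0.0752).

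In the machinery that senses sterol and activates SREBP, 2 of 11 measured genes rose and 4 fell for day 21 against day 7 (median -0.36). With 11% and 19.1% of all probe sets called in those directions, the number that rose was near the background. Srebf1 encodes an SREBP with a main role in fatty acid synthesis. It averaged 7.31 ± 0.18 on day 21 and 6.38 ± 0.06 on day 7 (log2 change 0.93 ± 0.19, limma adjusted p = 0.00253). Srebf2, the main SREBP of cholesterol synthesis, averaged 8.86 ± 0.14 on day 21 and 8.29 ± 0.04 on day 7 (log2 change 0.57 ± 0.18, adjusted p = 0.0304), a call lost when any single array of either day was left out (adjusted p up to 0.104). Insig2, the paralog of Insig1, fell as Insig1 rose, to 6.22 ± 0.26 on day 21 against 6.85 ± 0.21 on day 7 (log2 change -0.64 ± 0.17, adjusted p = 0.0135). Its call was lost with centred arrays (0.0676) and without day 7 replicate 3 (0.0529) or day 21 replicate 1 (0.0587). Scap, the escort protein, differed by 0.49 ± 0.18 (adjusted p = 0.063).

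The proteases that release SREBP were lower on day 21 than on day 7. Mbtps1 changed by -1.10 ± 0.16 (limma adjusted p = 0.000298) and Mbtps2 by -1.32 ± 0.18 (adjusted p = 0.000169). Erlin2, an endoplasmic reticulum protein that takes part in regulated degradation of sterol-sensing proteins, changed by -1.69 ± 0.16 (adjusted p = 1.07e-05), after a change of 0.88 ± 0.16 for day 7 against day 2 (adjusted p = 0.00596). Between days 2 and 7, 2 of the 11 rose and 0 fell (median 0.11). These calls of Mbtps1 and Mbtps2 and both of Erlin2 held under all alternatives run.

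Among genes of uptake and transport larger changes occurred. Of 14 measured genes, 8 rose and 2 fell for day 21 against day 7 (median 0.51). Gramd1b, which moves cholesterol from the plasma membrane inward, changed by 1.75 ± 0.22 (limma adjusted p = 0.0001). Mylip, a ligase that marks lipoprotein receptors for degradation, changed by 1.58 ± 0.14 (adjusted p = 6.75e-06). Lipa, the lysosomal lipase that frees cholesterol from lipoproteins, changed by 1.34 ± 0.18 (adjusted p = 0.000134). Vldlr, a lipoprotein receptor, changed by -1.57 ± 0.15 (adjusted p = 1.38e-05) and Stard4, a cytosolic sterol carrier, by -1.19 ± 0.17 (adjusted p = 0.000258). The alternatives were not run for this call of Stard4. Its call for day 21 against day 2 (-1.25 ± 0.17, limma adjusted p = 0.000511) held under all of them. For day 7 against day 2, 1 rose and 3 fell (median -0.31), among them Gramd1b (-1.07 ± 0.22, adjusted p = 0.0128) and Lipa (-1.005 ± 0.18, adjusted p = 0.00591).

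Genes of cholesterol efflux, storage and oxysterols also changed in both intervals. Of 14 genes, 8 rose and 2 fell for day 21 against day 7 (median 0.58). Abcg1, a sterol exporter, changed by 1.601 ± 0.25 (limma adjusted p = 0.000373), Soat1, which esterifies cholesterol for storage, by 1.21 ± 0.18 (adjusted p = 0.000307) and Ch25h, which makes an oxysterol, by 1.07 ± 0.24 (adjusted p = 0.00536). Cyp7b1, an oxysterol hydroxylase, changed by -1.14 ± 0.20 (adjusted p = 0.000964). For day 7 against day 2, 0 rose and 3 fell (median -0.28), with Abcg1 at -1.23 ± 0.25 (adjusted p = 0.0103). Macrophages express many genes of both the uptake and the efflux lists, and macrophage markers moved with both. Of 16 macrophage markers 15 rose and 0 fell for day 21 against day 7, and 0 rose and 9 fell for day 7 against day 2. The list mean (log2) lay at 9.36 to 9.77 on day 21, at 7.33 to 8.12 on day 7 and at 8.86 to 9.07 on day 2, and their part in the changes of both lists and in that of Insig1 was not tested.

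In fatty acid synthesis, the other branch under SREBP control, 3 of 19 genes rose and 5 fell for day 21 against day 7 (median 0.05), numbers near the background of 11% and 19.1% of all probe sets. Fads1, a desaturase, was higher on day 7 than on day 2 by 1.09 ± 0.15 (limma adjusted p = 0.00174) and changed by -1.68 ± 0.15 for day 21 against day 7 (adjusted p = 6.7e-06). Between days 2 and 7, 3 of the 19 rose and 1 fell, namely Me1 (-1.13 ± 0.14, adjusted p = 0.00113). Acaca, acetyl-CoA carboxylase, changed by -0.99 ± 0.15 for day 21 against day 7 (adjusted p = 0.000258) and Fasn, fatty acid synthase, by -0.82 ± 0.20 (adjusted p = 0.00732). Of the 3 that rose for day 21 against day 7, Elovl1 changed most, by 0.80 ± 0.17 (adjusted p = 0.00269). Proliferation genes fell in the same interval, 20 of 24 being lower on day 21 than on day 7 and 0 higher (median -1.69). The list mean (log2) lay at 5.67 to 5.95 on day 21 and at 7.57 to 7.62 on day 7. Endothelial markers were also lower on day 21 than on day 7, 6 of 6, while of 12 fibroblast markers 2 were higher and 3 lower. The part of any of these in the falls of Fdft1 and Lss was not tested.

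**Figure D5:**
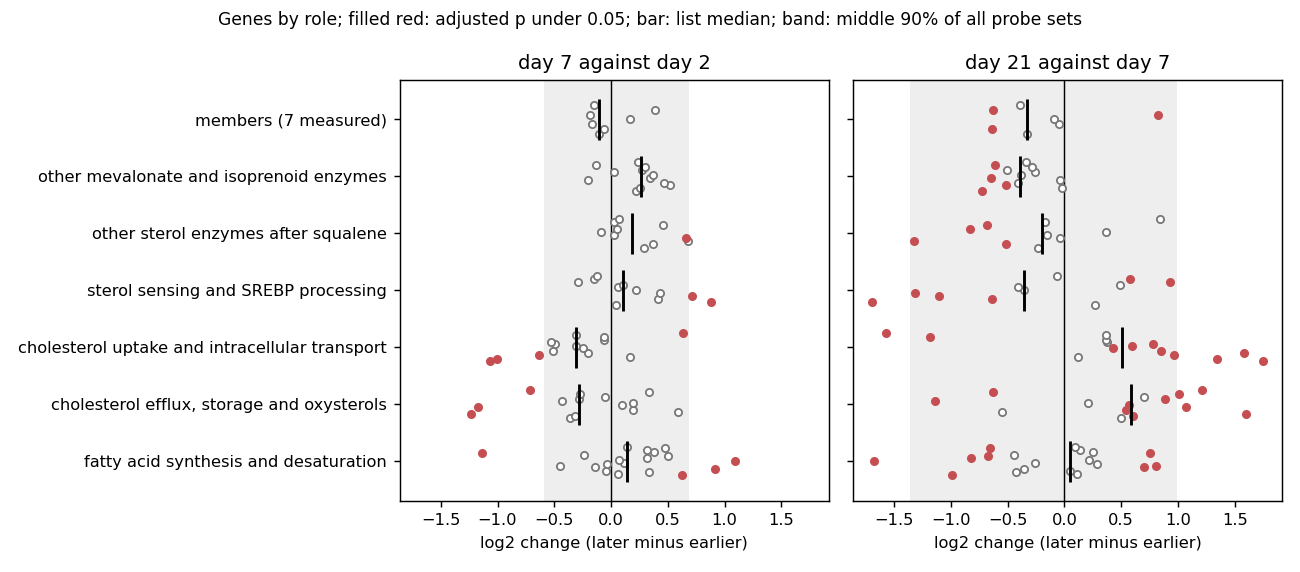
Log2 change (horizontal axes, later minus earlier day) of each gene by role (rows) for day 7 against day 2 and day 21 against day 7, filled red where the adjusted p was under 0.05, with a bar at the list median and a band from the 5th to the 95th percentile of all probe sets. For day 21 against day 7 the medians are -0.33 for the members, 0.51 for uptake and transport and 0.58 for efflux, storage and oxysterols.

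By the mean course of the 7 members over the 9 arrays, each centred on its own mean, the genes most like them were Zc3h14, Pcbp2, Mkln1, Syncrip and Immt. Their root mean square difference from that course was 0.061 to 0.077 log2 units, against a median of 0.36 over the 12040 genes compared. The members themselves differed from their mean course by 0.14 (Fdps) to 0.47 (Insig1). The 5 genes were picked as the closest of all genes compared, so their lying closer than the members was fixed by that choice. Likeness here is a description over 9 arrays that share 3 days.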

How the data were processed

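Probe set intensities of 9 single-colour Affymetrix arrays were deposited by the authors on a linear scale, and the submitters' processing notes name affy and RMA. Versions and filters: not given in the sources used here. RMA subtracts background and equalises arrays, which compresses changes of dim probe sets, yet the deposited array medians still differed (log2 5.24 to 5.66). Here log2 was taken, 57 control probe sets were left out and 31042 were tested with limma 3.58.1 in R 4.3.3 (a mean per day over all arrays, two-sided, Benjamini-Hochberg adjustment over all probe sets, called under 0.05, 6 residual and 5.69 prior degrees of freedom). Unless stated, errors are SEs.

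A gene is its brightest probe set with a single symbol in the platform annotation. The members and lists were chosen with earlier results of these data known. Named were all members, from each list up to 4 called genes with the largest change, chosen SREBP pathway genes where measured, and the 5 genes most like the members. Of 70 such list changes called, 45 held under all alternatives run, and mainly those are printed. The labels number litters 1 to 3 on every day without saying whether a number is the same litter on each. Same-numbered arrays of days 7 and 2 each correlated best with their own number (0.41, 0.077 and 0.22, deviations from day means), those of days 21 and 7 did not (-0.24 to -0.036), and 2 of all 9 pairs exceeded 0.1, so the litter number is no block in the tests and the fit with it is an alternative. Litters differ within a day, so p-values measure spread between litters.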

Additional observations from a re-analysis of the deposited data

How the results depend on the processing

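The numbers of members called depended on the scaling and on single arrays. For day 21 against day 7, where 2 were lower, 0 were lower after a further quantile normalization, with arrays centred on their median or with the second brightest probe sets, and 0 to 2 when an array was left out. The 1 higher became 0 to 1 when an array was left out. For day 21 against day 2, where 0 were higher and 1 lower, the numbers were 1 and 0 after a further quantile normalization, 0 lower with centred arrays, 0 lower with the second brightest probe sets, 1 and 2 with only the days compared and 1 higher with trended and robust moderation. When an array was left out they were 0 to 1 higher and 0 to 1 lower. For day 7 against day 2 no alternative called a member. Leaving out dim probe sets changed no number of members called.

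Values that changed sign were all of uncalled changes. After quantile normalization Fdps and Idi1 were at 0.0791 and 0.00558 for day 21 against day 7, and with centred arrays at 0.0603 and 0.0162. On second brightest probe sets Fdft1, Lss and Idi1 were at 0.15, -0.10 and -0.16 for day 7 against day 2, Cyp51 at 0.0775 for day 21 against day 7 and Idi1 at -0.39 for day 21 against day 2. When an array was left out, Sqle ranged from -0.42 to 0.0562 and Fdft1 from -0.16 to 0.12 for day 7 against day 2, and Fdps from -0.15 to 0.0640 for day 21 against day 7. Likewise for day 7 against day 2, Scap and Srebf2 fell on both sides of 0, reaching -0.00314 to 0.30 and -0.27 to 0.0446.

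Centring moved the median change of all probe sets for day 21 against day 7 to 0.13, against 0.02 as deposited, and the probe sets called to 4340 higher and 4702 lower, against 3419 and 5920. Quantile normalization gave 5101 and 5412. For day 7 against day 2 the numbers were 1707 higher and 1068 lower as deposited, 902 and 1272 centred and 1645 and 1427 after quantile normalization. For day 21 against day 2 they were 2118 and 3773, 2187 and 3337, and 3397 and 3785. With the litter number as a replicate block, Insig1, Fdft1 and Lss kept their calls for day 21 against day 7 (adjusted p = 0.0214, 0.0122 and 0.0204), as did Fdft1 for day 21 against day 2 (0.0136), and no other member was called. The cause of these differences was not tested.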
